A study of Homo sapiens with 10 samples.

Results

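The regions described here are the 0.25 Mb windows of chromosome 11 (hg38) measured by RNA-seq in T24, a human cell line from bladder cancer, and in T24R2, its cisplatin-resistant derivative. Each gene was placed in a window by the midpoint of its lowest start and highest end, and its counts were summed per window and library. A window was kept when its sum over all 10 libraries was at least 100 counts. Of 541 window positions along the chromosome, 495 held a gene midpoint and 279 were kept. Across chromosomes 1 to 22 and X, 5907 windows met the same condition. The 216 windows that held a gene but were not kept included 118 with no count at all, so the kept windows contained 99.98% of the chromosome's counts, from 1600 genes. Windows were chosen by their summed counts, and the steps along the chromosome were defined by the log2 ratio of T24R2 to T24 in those same windows. Window ratios, step sizes and gene fold changes between the lines are therefore given as a description. The edgeR test used below serves only to say which genes are called, and no call is offered as support.

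Both groups were 5 libraries of total RNA taken on day 3 from cells grown in RPMI with 10% fetal bovine serum. T24 was the parental line, and T24R2 was 1 line derived from it by serial exposure to cisplatin and received as a gift. According to the methods T24R2 was kept in medium with cisplatin, whereas the labels list the same medium for both lines, so the line and the drug in its medium cannot be told apart. Nothing in the labels states that replicates came from separate cultures, and their SD may be technical. Depth was 9257843 to 10840954 counts per library, and no pair of replicates of a line agreed within sampling noise. Of the markers for the labelled urothelial origin, the keratins KRT7, KRT8 and KRT18 were at 2242, 1541 and 1112 CPM (counts scaled to library size) in T24. In T24R2 they were lower, at 1370, 1009 and 690.9 CPM. UPK1B, UPK3A, KRT20, KRT5 and CDH1 were below 0.3 CPM in both lines. KRT19 was at 267.0 CPM in T24 and 0.0887 CPM in T24R2, and GATA3 at 22.1 and 0.214 CPM. PPARG was at 75.9 and 26.2 CPM, EPCAM at 4.45 and 0.130 CPM, and UPK2, a chromosome 11 gene, at 9.90 and 2.74 CPM. TP63 was at 0.987 and 0.489 CPM and UPK1A at 0.476 and 0.222 CPM. Of 11 markers of other cell types, the leukocyte and fibroblast genes PTPRC, CD3E, CD68, LUM, DCN and COL1A2 and the endothelial VWF were below 0.5 CPM in both lines. CD14 was at 1.12 CPM in T24 and 0.0929 CPM in T24R2, COL1A1 at 6.45 and 1.03 CPM, PECAM1 at 5.36 and 1.17 CPM, and the endothelial cadherin CDH5 at 239.0 and 0.559 CPM. The part of these marker differences in the chromosome 11 values was not tested.

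Cancer cell lines often carry gains, losses and rearrangements of chromosome arms, and a derivative line can differ from its parent in them. A change in the number of copies of a segment can move many neighbouring genes together, while regulation of single genes moves them one by one. Chromosome 11 carries on its short arm the imprinted domain and HRAS near the telomere, on the proximal long arm a gene-dense stretch with ferritin and CCND1, and towards the long-arm telomere the genes of MCAM, CBL and ETS1. No DNA was measured here, so a shift in summed RNA over a segment is a shift in RNA alone. In bulk RNA, fewer cells of a kind and less RNA per cell cannot be told apart.

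The stretches below are promoter sequence of genes on which the account turns, shown so that the letters upstream of genes from each segment can be compared. LDHA and ADM lie in the p-arm segment, AHNAK and YAP1 in the middle segment, and MCAM and APLP2 in the distal segment. Each is the 150 bases before the RefSeq start of the gene, 5′ to 3′ on the gene's strand (assembly GRCh38.p14), with every CG in capitals. CG reads the same on both strands. They lie at chr11:18394413-18394562 on the + strand for LDHA, chr11:10304923-10305072 (+) for ADM, chr11:62545827-62545976 (-) for AHNAK, chr11:102110297-102110446 (+) for YAP1, chr11:119317131-119317280 (-) for MCAM and chr11:130070418-130070567 (+) for APLP2. For AHNAK, MCAM and APLP2 this is inside the gene's span in the deposited tables, because longer transcripts are annotated there, but none of the stretch is exonic for that gene (0 bases). Of the LDHA stretch, 3 bases lie in annotated exons of LDHA.
LDHA: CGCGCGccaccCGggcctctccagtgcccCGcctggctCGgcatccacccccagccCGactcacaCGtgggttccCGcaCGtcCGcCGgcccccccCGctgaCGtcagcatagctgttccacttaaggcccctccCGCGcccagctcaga
ADM: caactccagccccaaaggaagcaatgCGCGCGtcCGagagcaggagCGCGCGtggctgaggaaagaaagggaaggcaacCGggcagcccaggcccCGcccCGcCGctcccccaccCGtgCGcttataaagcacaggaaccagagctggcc
AHNAK: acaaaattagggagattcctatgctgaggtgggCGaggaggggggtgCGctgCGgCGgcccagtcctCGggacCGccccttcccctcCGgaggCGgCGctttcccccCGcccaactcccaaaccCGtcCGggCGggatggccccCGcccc
YAP1: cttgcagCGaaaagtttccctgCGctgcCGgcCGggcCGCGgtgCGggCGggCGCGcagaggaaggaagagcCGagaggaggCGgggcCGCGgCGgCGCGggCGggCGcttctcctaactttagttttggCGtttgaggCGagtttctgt
MCAM: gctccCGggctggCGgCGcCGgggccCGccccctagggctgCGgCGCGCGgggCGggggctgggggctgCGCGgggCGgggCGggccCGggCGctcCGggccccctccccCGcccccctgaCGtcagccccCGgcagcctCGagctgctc
APLP2: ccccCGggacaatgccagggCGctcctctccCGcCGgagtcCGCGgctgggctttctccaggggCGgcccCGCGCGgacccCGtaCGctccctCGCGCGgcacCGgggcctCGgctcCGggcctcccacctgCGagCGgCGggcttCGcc

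The stretches held 16 (LDHA), 13 (ADM), 14 (AHNAK), 21 (YAP1), 21 (MCAM) and 22 (APLP2) CG. Of 924 tested chromosome 11 genes, 611 matched a promoter by symbol, and their median was 14 CG in the 150 bases. The median was also 14 in each of the 3 segments described below (194, 341 and 76 matched genes). Over all 27305 genes in the promoter table it was 7, and 88.6% of them held at least 1 CG, against 98.7% of the matched chromosome 11 genes. These sets are unlike, because the matched genes passed a count filter and the table holds genes whether expressed or not. Tested genes of other chromosomes were not compared, so nothing is read from this difference about chromosome 11. The segments did not differ in their median CG count.

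Chromosome 11 as a whole held less of the RNA in T24R2. It took 7.99% to 8.07% of all counts in the 5 T24 libraries and 6.33% to 6.51% in the 5 T24R2 libraries, and the groups did not overlap. The median window log2 ratio of T24R2 to T24 was -0.65, with a median absolute deviation of 0.49. Of the 279 windows, 224 (80.3%) were below 0, and 205 without scaling beyond library size. In 195 windows every T24R2 library was below every T24 library, in 30 every one was above, and in 54 the groups overlapped. Over all 5907 windows the lines did not overlap in 71.3%, with T24R2 lower in 36.4% and higher in 34.8%, and since the rule used these ratios nothing is read from the count. Windows just inside the count limit were SORL1 (129 counts, log2 ratio 0.86), NOX4 (136 counts, -3.77) and a window led by MUC5AC (173 counts, -2.43). Those just outside were led by SYT9-AS1 (69 counts, 1.47), SLC5A12 (68 counts, -0.53) and ARHGAP42-AS1 (67 counts, -0.56).

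The search along the chromosome gave 2 steps and 3 segments. The p-arm segment ran from 0 to 48.25 Mb with 109 windows at a median log2 ratio of -0.93. The middle segment ran from 57.25 to 114.5 Mb with 130 windows at a median of -0.30. The distal segment ran from 115.25 to 134.5 Mb with 40 windows at a median of -1.07. The first step was therefore a rise of 0.63 on the log2 scale (SD of the 5 T24R2 libraries 0.03, range 0.58 to 0.65), and the second step was -0.77 (SD 0.06, range -0.85 to -0.72). Set against the T24 mean, the same difference between neighbouring segments in single T24 libraries lay between -0.02 and 0.02. Every T24R2 library showed both steps in the same direction.

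**Figure D1:**
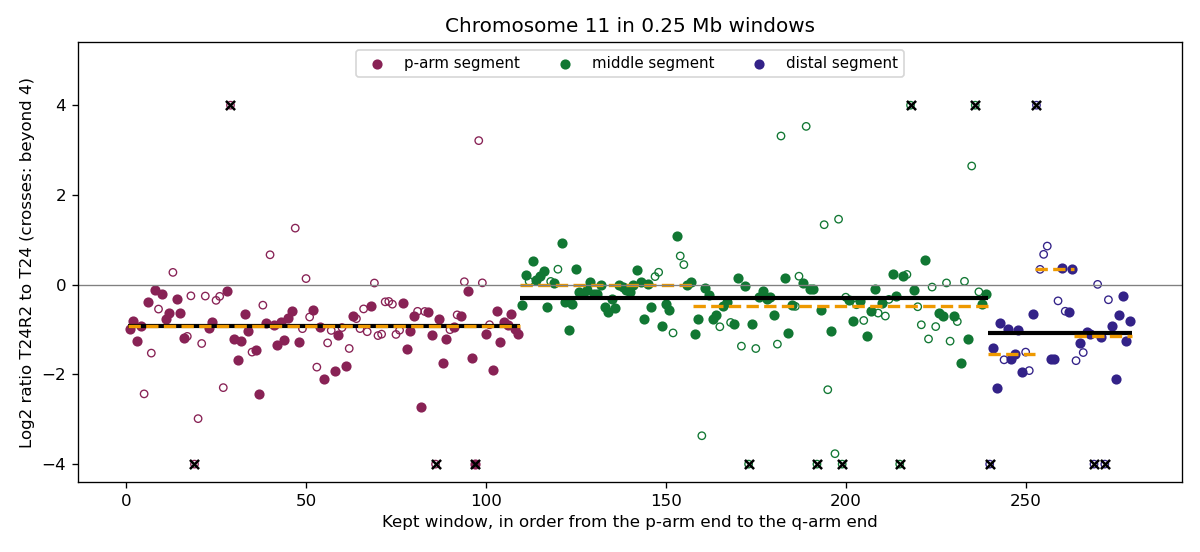
The log2 ratio of T24R2 to T24 (y axis) of the 279 kept windows in their order along chromosome 11 (x axis). Filled points have a mean of at least 500 counts per library, open points less, and crosses mark windows beyond 4 in either direction. Black lines are the medians of the 3 segments (-0.93, -0.30 and -1.07), and dashed lines are the medians of the 6 runs found with a lower penalty per step. The middle segment sits above both outer segments.

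In the main search the first step lay across 9.0 Mb without a kept window, which spans the centromere. That gap held 216 genes, of which 144 have olfactory receptor symbols, and 61 counts in all. The last tested gene before it was PTPRJ, a receptor tyrosine phosphatase, at 133.8 ± 5.19 CPM in T24 and at 62.8 ± 2.68 CPM in T24R2 (SD over 5 libraries). The first tested gene after it was TNKS1BP1, which encodes a tankyrase-binding protein, at 230.1 ± 3.49 and 114.6 ± 10.8 CPM. TNKS1BP1 alone had a log2 fold change of -1.01 and PTPRJ one of -1.09, so these flanking genes did not show the step that the medians over many windows showed. With windows of 0.1 Mb, and without the most abundant gene of each window, the first step was placed at 57.5 Mb. TNKS1BP1 then lies before the step, so whether the step falls in the gap or just past it depended on the windows.

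The second step lay in a 0.75 Mb gap between REXO2 and CADM1. REXO2, an oligoribonuclease, was at 67.4, 57.5, 58.0, 68.3 and 62.2 CPM in the T24 libraries and at 35.2, 34.2, 29.4, 35.1 and 34.8 CPM in the T24R2 libraries. CADM1, a cell adhesion molecule of the immunoglobulin family, was at 29.5, 31.0, 27.1, 30.7 and 30.2 CPM in T24 and at 0.918, 1.91, 1.73, 2.41 and 1.57 CPM in T24R2. For both genes all T24R2 libraries were below all T24 libraries. The place of this second step depended on the windows used. Both steps were found within 1.0 Mb under most alternatives, the first in 25 of 26 and the second in 20 of 26. Many of these alternatives only left out 1 library or changed the scaling or pseudocount, which tries the place of a step little. The second step was missed only where the windows, their contents or the penalty changed. With windows of 0.5 Mb it lay between 106.5 and 107.0 Mb, and in windows of at least 1000 counts between 106.25 and 107.25 Mb. With shifted window edges it lay between 106.125 and 107.375 Mb, and without the most abundant gene between 102.5 and 102.75 Mb. Genes between these places and 114.5 Mb then fall beyond the step. With windows of 0.1 Mb it was absent, and a different step lay between 72.4 and 72.5 Mb. Penalty factors of 1 and 1.5 found a step at 72.5 Mb and the step at 114.5 Mb together.

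Summed over its kept windows, the p-arm segment gave 28242, 28474, 27993, 27883 and 28181 CPM in the T24 libraries. The T24R2 libraries gave 13720, 13565, 13777, 13590 and 13511 CPM. The lines did not overlap, and the T24R2 mean was 48.4% of the T24 mean. In the middle segment the T24 libraries gave 46020, 45948, 45255, 46110 and 45252 CPM, and the T24R2 libraries 43063, 41804, 42252, 41455 and 41060 CPM, 91.7% of T24. Without scaling beyond library size that percentage was 102.7%, and those of the outer segments were 54.2% and 51.1%. Of the middle-segment sums, the window led by FTH1 alone gave 5620 CPM in T24 and 10752 CPM in T24R2. Its rise offsets falls elsewhere in the segment, so the middle-segment percentage leans on 1 window. The distal segment gave 11294, 11305, 11255, 11132 and 11124 CPM in T24. It gave 5085, 5105, 5267, 5090 and 5080 CPM in T24R2, 45.7% of the T24 mean. On these scaled values the gap between lines exceeded the range within each line in all 3 segments. For the middle segment this depends on the scaling, since its unscaled mean was not lower in T24R2 (102.7% of T24).

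**Figure D2:**
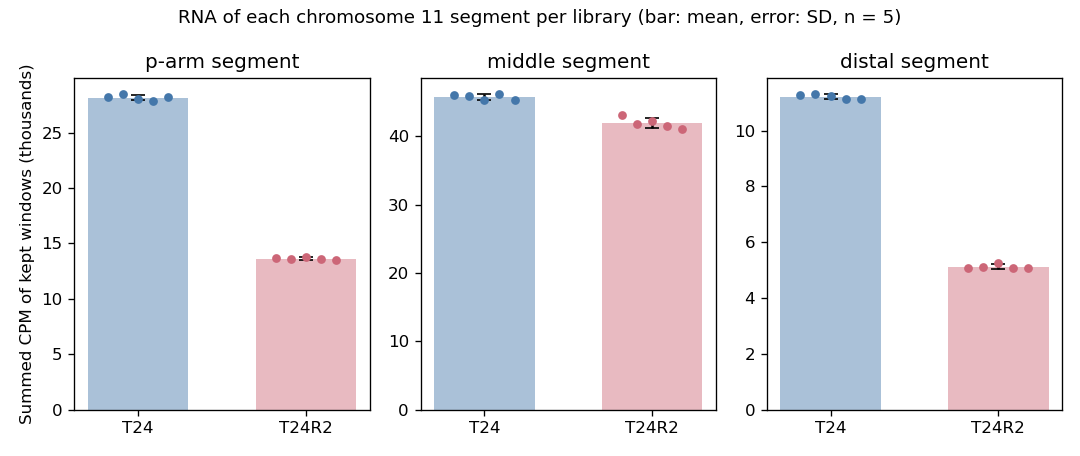
Summed CPM of the kept windows (y axis, drawn in units of 1000 CPM from 0) per segment, with 1 point per library, bars for the mean and error bars for the SD of 5 libraries. T24R2 sits at 48.4%, 91.7% and 45.7% of T24 in the p-arm, middle and distal segments. The middle-segment sums include the window led by FTH1, at 5620 CPM in T24 and 10752 CPM in T24R2.

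The difference was spread over the windows of the outer segments rather than held by a few. All 62 p-arm windows with a mean of at least 500 counts per library were below 0, from -4.07 to -0.13, but 59 were without scaling beyond library size. In the distal segment 22 of 24 such windows were below 0, from -2.31 to 0.38. In the middle segment 63 of 84 were below 0, from -1.75 to 1.09, and 49 without scaling. Of all p-arm windows, 9 were above 0, and each of these had a mean under 500 counts. The p-arm windows whose libraries did not overlap and that were higher in T24R2 were those led by STK33, GALNT18, SPON1 and TSPAN18. A single gene held more than 90% of the counts in 111 of the 279 windows, and window ratios often rest on 1 gene.

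Gene by gene, 924 genes of the chromosome were tested, all of them in kept windows. A gene is called here when edgeR's quasi-likelihood test gave an adjusted p below 0.05 and the log2 fold change exceeded 0.5 in size. Of the 924, 477 (51.6%) were called lower and 78 (8.44%) higher in T24R2. Over all 16181 tested genes of the genome, 51.4% were called in either direction, 26.5% lower and 24.9% higher. Without scaling beyond library size, chromosome 11 had 395 lower and 114 higher, and the genome 3431 lower and 5206 higher. Since the rule used this contrast, nothing is read from the count beyond its size. The median gene log2 fold change was -0.55 on chromosome 11 and 0.01 over all tested genes. The p-arm segment held 204 genes called lower and 7 called higher of 288, with a median of -0.91. The middle segment held 183 lower and 64 higher of 520, with a median of -0.23, and the distal segment 90 lower and 7 higher of 116, with a median of -0.98. With the 22 genes that had no more than 3 counts in any library of 1 line set to the bound of their fold change, these medians were the same to 2 decimals.

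The counts were made with the strand option of featureCounts set to 1, and whether the libraries carried strand in that sense is not given in the sources used here. If they did not, reads of a gene and of its partner on the opposite strand cannot be told apart. Exons of 446 of the 924 tested genes (48.3%) overlapped exons of a tested gene on the opposite strand. Without them the median log2 fold changes were -0.91 (166 genes), -0.23 (254) and -1.01 (58) in the p-arm, middle and distal segments. Genes described below that have such a partner include MDK, CD82, CD44, CD151, RPL27A, RRM1, ILK, CCND1, LTO1, FADS2, YAP1, EFEMP2, MYRF, HSPA8, MCAM, TAGLN, RPS25, NCAPD3 and PPP2R1B, and their single values carry this limit. So do those of IFITM1, CARS1, CD81, SLC22A18, PRADX, GAB2, INTS4, CUL5, ACAT1, MMP1, LRRC32, AASDHPPT and ZFP91. FTH1, BEST1, BCL9L, CXCR5 and ROBO4 also have such a partner, as does UPK2 above.

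The medians were also taken by kind of gene. In the p-arm segment protein-coding genes had a median log2 fold change of -0.92 (228 genes) and lncRNAs one of -0.86 (50 genes). In the middle segment the medians were -0.26 (395) and -0.22 (108), and in the distal segment -1.01 (94) and -0.78 (20). The remaining kinds, mostly pseudogenes, were few, with medians of -0.38 in the p-arm segment (10 genes), 0.51 in the middle segment (17 genes, 3 below 0) and -0.77 in the distal segment (2 genes). Among genes of at least 32 CPM, 130 of 134 p-arm genes and 47 of 50 distal genes were below 0, against 156 of 244 in the middle segment. The 4 p-arm genes above 0 were PKP3 (0.08), TALDO1 (0.24), PRADX (0.05) and GTF2H1 (0.09), none of them called. These were named after their values were seen.

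**Figure D3:**
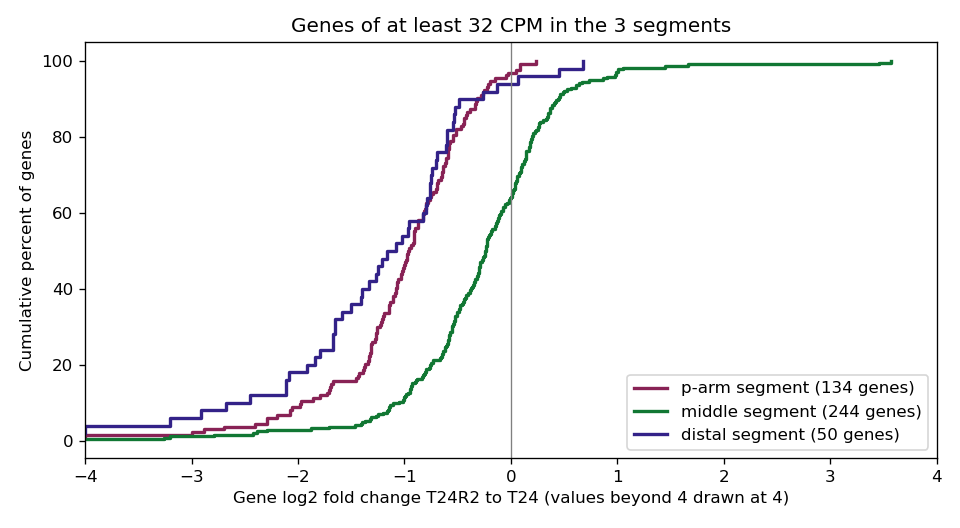
Cumulative percent of genes (y axis) by log2 fold change of T24R2 to T24 (x axis) for genes averaging 32 CPM or more, 1 line per segment. The p-arm and distal lines lie to the left of the middle line, with medians of -0.96 and -1.12 against -0.24.

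The most abundant p-arm genes serve glycolysis and the ribosome. LDHA, which encodes the enzyme that turns pyruvate into lactate, was at 1968, 2284, 2121, 1812 and 2245 CPM in T24 and at 465.7, 500.1, 474.6, 516.1 and 519.8 CPM in T24R2. Its T24R2 libraries were all below its T24 libraries, at 23.7% of the T24 mean, further down than the segment's summed level. RPL27A and RPLP2, both ribosomal proteins, were closer to it. RPL27A was at 1272 ± 43.1 CPM in T24 and 553.6 ± 64.8 in T24R2 (43.5%), and RPLP2 at 1027 ± 41.5 and 500.6 ± 69.7 CPM (48.8%, SD, n = 5).

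A few p-arm genes were far below the segment. MDK, a heparin-binding growth factor, was at 180.1, 152.0, 149.1, 156.0 and 153.7 CPM in T24 and at 0.367, 0.780, 0.384, 0.980 and 0.688 CPM in T24R2, with a log2 fold change of -7.91 (SE 0.12). CD82, a tetraspanin of the cell surface, was at 86.6, 80.8, 78.5, 90.7 and 91.3 CPM in T24 and at 6.61, 4.51, 3.93, 4.37 and 4.33 CPM in T24R2. Neither gene's groups overlapped. ADM, the precursor of the vasodilator peptide adrenomedullin, had a log2 fold change of -2.99. The lowest of the windows with at least 500 counts were those led by CD82 (-4.07), CD59 (-2.73) and ADM (-2.43), followed by TAGLN in the distal segment (-2.31) and NUCB2 in the p-arm segment (-2.11). CD59, which blocks the membrane attack complex of complement, was at 683.2 ± 24.4 CPM in T24 and 92.5 ± 3.06 in T24R2.

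The lists below were drawn up by position with results of these data known, so their counts describe and do not support. Each count stands beside the 26.5% called lower and 24.9% called higher over all tested genes. Of 22 tested genes in the flank of 11p15 that holds HRAS, 19 were called lower and 0 higher, with a median log2 fold change of -0.80. HRAS, a small GTPase of growth-factor signalling, was at 150.9 ± 8.10 CPM in T24 and 86.8 ± 2.76 in T24R2. The tetraspanin gene CD151 (-1.98) and the interferon-response genes IFITM1 (-1.34) and IRF7 (-1.71) were lower, as was the scramblase gene ANO9 (-2.69). TALDO1, an enzyme of the pentose phosphate pathway, was at 402.5 CPM in T24 and 475.2 CPM in T24R2 and was not called.

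Of 8 tested genes of the 11p15 imprinted domain, 4 were called lower and 0 higher, with a median of -0.60. H19, an imprinted lncRNA (2.38 CPM in T24 and at least 8.57-fold lower in T24R2 against a floor of 3 counts per library), PHLDA2 (-1.23) and SLC22A18 (-1.07) were among them. CD81 (-0.28) and CARS1 (-0.44) were not called, while NAP1L4, a histone chaperone, was called lower (-0.75). Around the globin and TRIM genes, 9 of 11 tested genes were called lower, with a median of -0.91. They included RRM1, the large subunit of ribonucleotide reductase (-1.19), the integrin-linked kinase gene ILK (-0.91), the restriction factor TRIM5 (-1.31) and ARFIP2 (-1.34). Among metabolism, matrix and surface genes of 11p13 to 11p15, 15 of 16 tested genes were called lower, with a median of -1.42. CD44, the hyaluronan receptor, was at 944.3 ± 31.3 CPM in T24 and 291.4 ± 18.7 in T24R2. FJX1 (-1.86) was also lower.

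The middle segment held the genes of highest abundance that went the other way. FTH1, the heavy chain of the iron-storage protein ferritin, was at 2928, 2801, 2607, 3162 and 2549 CPM in T24 and at 5847, 5423, 5827, 5418 and 5072 CPM in T24R2. All T24R2 libraries were above all T24 libraries. BEST1, a chloride channel gene on the opposite strand whose span overlaps FTH1, was at 2228 ± 182.4 and 4620 ± 218.6 CPM. Their exons overlap, and their reads cannot be told apart with certainty. AHNAK, a very large scaffold protein, was lower, at 3154 ± 186.4 CPM in T24 and 1558 ± 51.8 in T24R2 (49.4%). The window led by FTH1 summed to 5620 ± 420.9 CPM in T24 and 10752 ± 514.8 in T24R2.

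Among genes of at least 32 CPM in the middle segment, those that rose most were SYTL2, P2RY6 and DHCR7. SYTL2, an effector of vesicle traffic, was at 6.54, 5.26, 6.63, 4.62 and 4.64 CPM in T24 and at 66.3, 69.2, 63.8, 61.4 and 68.9 CPM in T24R2. P2RY6, a receptor for the nucleotide UDP, was at 8.36 ± 0.782 and 92.1 ± 5.74 CPM. DHCR7, the last enzyme of cholesterol synthesis, was at 54.4, 54.9, 55.0, 57.4 and 61.3 CPM in T24 and at 187.8, 186.0, 178.4, 175.3 and 171.0 CPM in T24R2. None of these groups overlapped. The DHCR7 window had the highest log2 ratio (1.09) of all windows with at least 500 counts, ahead of the windows led by FTH1 (0.94), AASDHPPT (0.55), ZFP91 (0.53) and HSPA8 (0.38).

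The largest falls among middle-segment genes of at least 32 CPM were those of IL18, PLAAT3 and EFEMP2. IL18, a cytokine of the interleukin-1 family, was at 83.8, 67.7, 73.0, 75.9 and 74.0 CPM in T24, and in T24R2 it was at 0.184 CPM in 1 library and 0 in the other 4. Against a floor of 3 counts per library it was at least 270-fold lower. PLAAT3, a phospholipase, was at 123.1 ± 4.23 and 12.9 ± 1.54 CPM, and EFEMP2, the matrix protein fibulin-4, at 74.6 ± 7.75 and 8.11 ± 0.616 CPM.

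Among the lists of the middle segment, the FADS and ferritin region of 11q12 had 3 genes called higher and 2 lower of 12, with a median log2 fold change of -0.04, which was 0.12 without scaling beyond library size. Beside the 24.9% called higher and 26.5% called lower over all tested genes, these counts are no result about these genes. FADS2, a fatty acid desaturase, was higher (1.01) and the transcription factor gene MYRF lower (-2.79). Around NEAT1 and MALAT1, 7 of 16 were called lower and 0 higher, with a median of -0.26. They included FOSL1, a subunit of the AP-1 transcription factor (-1.31), DRAP1 (-1.16) and EHBP1L1 (-1.40). In the CCND1 region 7 of 14 were called lower and 1 higher, with a median of -0.51. CCND1, which encodes cyclin D1, was at 1064, 1042, 1053, 1029 and 1072 CPM in T24 and at 537.8, 543.8, 551.1, 518.2 and 546.1 CPM in T24R2, with no overlap. CPT1A, which admits fatty acids to mitochondria, was also lower (-0.88), as was LTO1 (-0.73).

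Further along the long arm, 5 genes of 15 around PAK1, RSF1 and GAB2 were called lower and 1 higher, a share near the 26.5% called lower over all tested genes and so no result about these genes, with a median of -0.31. CTSC, a lysosomal protease, was lower (-1.05), as were the adaptor gene GAB2 (-0.62) and EMSY (-0.55), while INTS4 (-0.44) was not called. In the cluster of YAP1, BIRC and MMP genes, 3 of 8 were called lower, which in so short a list is no result beside that share either, with a median of -0.25. These 3 were the matrix metalloproteinase genes MMP1, MMP10 and MMP13, each below 16 CPM in T24. YAP1, a coactivator of the Hippo pathway, was at 207.4 ± 14.3 CPM in T24 and 250.3 ± 4.69 in T24R2 and was not called, nor were TMEM123 (-0.26), BIRC2 (-0.23) or DCUN1D5 (0.20). Of the DNA damage and caspase genes of 11q22 to 11q23, 7 of 9 were called lower, with a median of -0.66. They included PPP2R1B, a scaffold of protein phosphatase 2A (-1.37), SDHD of respiratory complex II (-1.15), the cullin gene CUL5 (-0.74) and ACAT1 (-0.57).

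The middle segment was itself uneven. With a lower penalty per step it divided at 72.5 Mb, into 48 windows with a median of -0.01 and 82 windows with a median of -0.47, or 0.15 and -0.30 without scaling beyond library size. The first of these runs summed to 98.4% of T24 (110.2% unscaled) and the second to 70.9% (79.4% unscaled). The sum of the first run includes the window led by FTH1, at 5620 CPM in T24 and 10752 CPM in T24R2. The tested genes had medians of -0.05 (305 genes) and -0.50 (215 genes). The main penalty did not separate these runs.

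In the distal segment the most abundant genes differed in direction. APLP2, a relative of the amyloid precursor protein, was at 2445, 2420, 2417, 2398 and 2385 CPM in T24 and at 528.7, 538.9, 621.3, 544.7 and 563.7 CPM in T24R2. HSPA8, the constitutive heat shock protein of the HSP70 family, was at 846.2, 832.9, 844.3, 800.9 and 802.5 CPM in T24 and at 1065, 1117, 1223, 1128 and 1112 CPM in T24R2. APLP2 was thus lower and HSPA8 higher in every T24R2 library, although HSPA8 missed the fold threshold with a log2 fold change of 0.45 (SE 0.04). RPS25, a ribosomal protein, was at 753.3 ± 34.8 and 316.6 ± 49.0 CPM (42.0%).

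Among distal genes of at least 32 CPM, MPZL2, MCAM and FEZ1 fell furthest. MCAM, an adhesion molecule of the immunoglobulin family also known as CD146, was at 119.7, 137.9, 122.0, 120.5 and 126.4 CPM in T24 and at 0.0918, 0.0867, 0.672, 0.267 and 0.295 CPM in T24R2. MPZL2, an epithelial adhesion molecule, was at 136.8 ± 7.34 CPM in T24 and had at most 3 counts in any T24R2 library, at least 494-fold lower. FEZ1, an adaptor of kinesin transport, had a log2 fold change of -3.20. TAGLN, an actin-binding protein of contractile cells, was at 209.6 ± 21.3 and 27.8 ± 2.22 CPM. In the same abundance range SC5D, the enzyme of cholesterol synthesis that acts just before DHCR7, was called higher, from 30.5 ± 2.91 to 48.8 ± 4.31 CPM.

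Of 18 tested surface, kinase and chromatin genes of 11q23 to 11q24, 16 were called lower and 1 higher, with a median log2 fold change of -1.45. The one called higher was NNMT (0.73), which lies in the middle segment, on the other side of the second step. BCL9L, a cofactor of beta-catenin, was lower (-2.09). CXCR5, on the opposite strand with exons that overlap those of BCL9L, was at 23.2% of its T24 level against 23.5% for BCL9L, and the reads of these genes cannot be told apart with certainty. In the list of 11q24 to 11q25, 14 of 16 tested genes were called lower and 0 higher, with a median of -0.92. The transcription factor gene ETS1 was at 388.9 ± 20.1 and 167.8 ± 8.99 CPM, the condensin subunit NCAPD3 had a log2 fold change of -1.41, and STT3A of the oligosaccharyltransferase one of -1.33.

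HSPA8 lay in a short run that stood apart within the distal segment. With the lower penalty, 11 windows from 120.75 to 125.0 Mb had a median of 0.34, between 13 windows at -1.55 and 16 windows at -1.14. This run summed to 1367 ± 27.3 CPM in T24 and 1462 ± 59.4 in T24R2, 106.9% of T24. Most of that was HSPA8, so the sum mainly follows this gene, and 5 of the 11 windows were below 0. The run's 26 tested genes had a median of -0.21, and 10 were called lower and 7 higher. Over all tested genes 26.5% were called lower and 24.9% higher, so the count called higher is near that share and no result about these genes. In the run before it 49 of 53 genes were called lower and 0 higher, and in the run after it 31 of 37 and 0.

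Some windows had no more than 3 counts in any library of 1 line. Lower in T24R2 were the windows led by KIRREL3 (at least 116-fold lower), LRRC32 (21.1 CPM, at least 76.0-fold) and OR51M1 (4.88 CPM, at least 17.6-fold). LRRC32 docks latent TGF-beta on the cell surface, and KIRREL3 is an adhesion protein related to nephrin. Higher in T24R2 were the windows led by NCAM1 (7.67 CPM in T24R2, at least 23.7-fold higher), PDGFD (7.11 CPM, at least 22-fold) and the kinase gene STK33 (3.67 CPM, at least 11.4-fold). Among tested genes, 17 were at this floor in T24R2 and 5 in T24. Windows at the floor in T24 and windows at the floor in T24R2 both occurred in the p-arm segment and in the middle segment.

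Against the other chromosomes, chromosome 11 had the lowest median window ratio of 23 (-0.65), and also the lowest median gene log2 fold change (-0.55). The next were chromosome 20 with 154 windows at -0.47, chromosome 13 with 150 windows at -0.41 and chromosome 10 with 278 windows at -0.28. Chromosome 10 had 1 step and chromosome 20 had 2 under the same search. Within chromosome 13 a segment reached -1.97, below any segment of chromosome 11. These are ranks of values from the contrast that chose the chromosome, with no test.

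**Figure D4:**
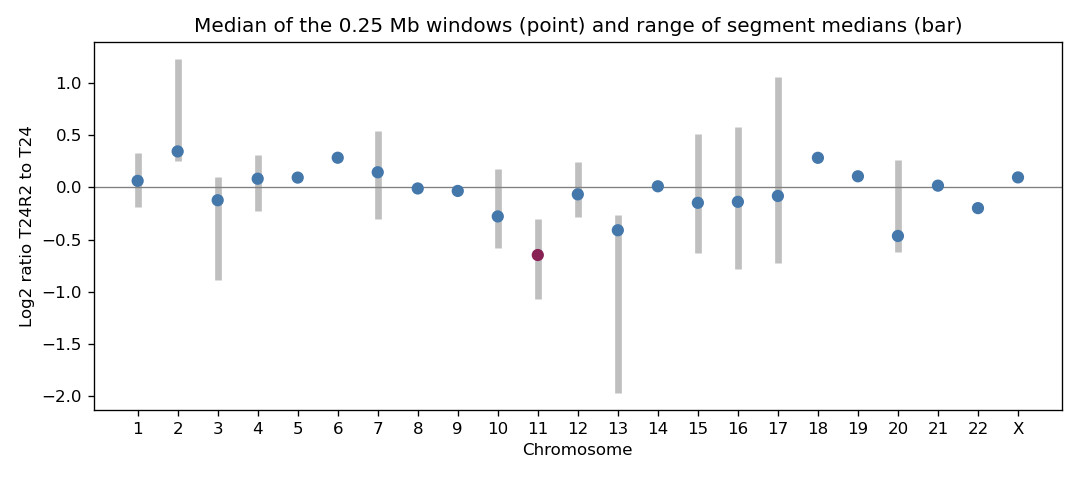
Median log2 ratio of T24R2 to T24 over the kept 0.25 Mb windows (points, y axis) for each of 23 chromosomes (x axis), with a bar from the lowest to the highest segment median where steps were found. Chromosome 11 has the lowest point, at -0.65, and its segments span -1.07 to -0.30.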

How the data were processed

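Total RNA of 5 T24 and 5 T24R2 samples was sequenced. The authors aligned reads with STAR 2.7.0 (hg38), removed duplicates and multiply mapped reads (SAMtools 1.10) and counted per gene of GENCODE 39 with featureCounts 2.0.1, with its strand option set to 1. The deposited values are raw counts per gene and library. From these, CPM were taken on library sizes scaled by TMM, and windows were summed as described, with a pseudocount of 0.5 per window and library. Steps were found by least absolute deviations, with at least 8 windows per segment and a penalty factor of 2. Genes were tested in R 4.3.3 with edgeR 4.0.16 (default filterByExpr, glmQLFTest, Benjamini-Hochberg over 16181 genes), with thresholds after the study. Scripts were tested on simulated data. Alternatives, whose effect the closing section gives, were other penalties, widths, count limits, scalings, filters, DESeq2 1.42.0, a replicate block and leaving out libraries, and 3 were chosen after seeing the data.

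The members and lists were chosen with earlier results of these data known. Named genes were the 3 most abundant of each segment, the genes beside each step, the extreme windows of at least 500 counts, the 3 largest called rises and falls of at least 32 CPM, and up to 4 members per list. HRAS, TALDO1, CD44, H19, PHLDA2, SLC22A18, NNMT, YAP1, the MMP genes, genes of windows at the floor or at the count limit and those said so in the text fall outside the rule and were named after their values were seen. The floor of 3 counts per library allows for counting error only, and no molecular identifiers are described. SD and SE take in the spread between libraries of a line, which may be technical. Same-numbered replicates did not deviate together (correlations -0.02 to 0.02). Other sequencing of the study was not analysed here.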

Additional observations from a re-analysis of the deposited data

Results flagged for a closer look

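In all, 5 values stood apart from the other 4 libraries of their line by Dixon's ratio. In 70 such comparisons chance gives about 3.5. T24R2 replicate 3 had a summed distal-segment level of 5267.5 CPM, against 5080 to 5105 in the other T24R2 libraries. The same library had the lowest REXO2 level, 29.4 CPM against 34.2 to 35.2. T24R2 replicate 1 had CD82 at 6.61 CPM, against 3.93 to 4.51, and IL18 at 0.184 CPM, against 0 in the others, which is near the level of single counts. T24 replicate 1 had MDK at 180.1 CPM, against 149.1 to 156.0. Each of these values lay on its own line's side of the gap between T24 and T24R2.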

How the results depend on the processing

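The number of steps was 2 and depended on the penalty, being 5 with a penalty factor of 1, 0 with a factor of 4 and 4 with least squares. The first step of 0.63 was 0.69 with the median gene of each window, 0.69 without the most abundant gene of each window, 0.68 in windows of at least 1000 counts, and 0.60 to 0.66 when 1 library was left out. Where the search itself placed other segments, it was 0.92 with penalty factors of 1 and 1.5 and 0.89 with windows of 0.1 Mb. The second step of -0.77 was -0.88 with the median gene, -0.85 in windows of at least 1000 counts and -0.80 to -0.75 when 1 library was left out. With the segments that the search placed, it was -1.30 with least squares, -1.08 with a penalty factor of 1 and -0.61 with a factor of 1.5. Neither step changed direction where it was found. The second step was not found within 1.0 Mb with a penalty factor of 4, with windows of 0.1 or 0.5 Mb, without the most abundant gene, in windows of at least 1000 counts or with shifted window edges. Genes called higher were 78, but 122 without a count filter and 42 with a mean of at least 100 counts. Without scaling beyond library size, 114 genes were called higher and 395 lower. That moved the median of all genes from 0.01 to 0.18 and the segment medians to -0.76, -0.14 and -0.91. With 1 library left out, 556 to 567 genes were called in either direction against 555.

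With the replicate number as a block, 554 genes were called against 555, and 476 were lower and 78 higher. On chromosome 11, 552 genes were called in the same direction in both fits, 3 calls were lost and 2 gained, none of them of a gene named here. Over all tested genes 8240 were called with the block against 8309. The labels do not say that a replicate number marks a shared batch, so the pairing is by number alone.

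Limits are as follows. Steps cannot be placed within the 9.0 Mb gap, and low windows rest on few counts. Whether the strand option fits the libraries is not given, so single values of genes with exons opposite another gene are uncertain, BEST1 and FTH1 among them. EEF1G, a gene every cell uses, had at most 1 count in any library, and a same-strand gene spans it in the annotation. The place and size of a step describe RNA only.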

Other observations

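The genes of the outer segments that were called higher in T24R2 were few and mostly of low abundance, and they were named after their values were seen. The 7 in the p-arm segment were LINC01001, TIMM10B, PPFIBP2, STK33, GALNT18, SPON1 and TSPAN18. TSPAN18, a tetraspanin like CD82, was at 0.46 ± 0.24 CPM in the parental line and at 5.54 ± 1.31 CPM in the resistant line (SD of 5 libraries), while CD82 in a neighbouring stretch of the same arm fell. All 7 in the distal segment lay in the run of 11 windows that also holds HSPA8. They were GRIK4, a kainate receptor subunit, TECTA, SC5D, SORL1, a sorting receptor, ROBO4, a receptor of the roundabout family, and 2 genes without a symbol whose spans overlap ROBO4, which makes the values of all of these uncertain. ROBO4 had a log2 fold change of 3.14 (SE 0.17), and GRIK4 went from 0.13 ± 0.19 to 4.75 ± 1.36 CPM.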
